A study of Homo sapiens with 8 samples.

Results

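TSPYL1 and TSPYL2 encode nuclear proteins of the testis-specific protein Y-like (TSPY-like) family. The genes were taken by name as known targets of the transcription factor RFX7, and every RFX7 peak whose summit lay within 50 kb of either end of one of them was collected from both deposited peak lists. They are 2 of 20056 protein-coding genes in the gene table, and the rule found 2 of 505 entries of the DMSO list and 2 of 622 of the Nutlin-3a list. The earlier work that made them known as RFX7 targets may rest on these same libraries, so the presence of the peaks is not independent evidence.

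The assay was ChIP-seq, in which DNA pulled down with an antibody to RFX7 is sequenced. It was done in HCT116, a colorectal carcinoma cell line of human origin that keeps functional p53. The cells were given 10 µM Nutlin-3a, which raises p53 by keeping MDM2 from binding it, or the solvent DMSO, in both cases for 24 h. Each treatment had 2 RFX7 ChIP samples and 2 samples of input chromatin, 8 samples in all, and the labels name no genetic change in the line. The files hold 1 peak list per treatment with nothing for single replicates, so the spread between replicates is unknown and the treatments were not tested against each other. A peak list also cannot tell binding in fewer cells from weaker binding in each cell.

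RFX7 belongs to the regulatory factor X family, whose members bind the X-box, a DNA element built of a pair of inverted arms, and it is known to act downstream of p53 on genes that restrain growth. TSPY-like proteins carry a nucleosome assembly protein (NAP) domain, a fold by which histone chaperones hold histones as nucleosomes are built or taken apart. TSPYL1 is an intronless gene of this family. TSPYL2, also known as CDA1 or CINAP, is X-linked and is known for slowing cell proliferation.

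Both genes had their peak at the start of transcription. The bases before the starts are shown first because the peaks lay on them. They are from RefSeq, build GRCh38.p14, written 5′ to 3′ in the direction of the TSPY-like gene. The first stretch, chr6:116279931-116280085 on the minus strand, is the whole interval between the start of TSPYL1 and a start of DSE, the gene of dermatan sulfate epimerase, on the opposite strand. The next, chr6:116254076-116254170 on the minus strand, is the matching interval between the start of the paralogue TSPYL4 and another start of DSE, and it is shown because no peak lay on it. Capitals in these mark an X-box arm, searched as GTTGCC or GTTGCT on both strands.
TSPYL1: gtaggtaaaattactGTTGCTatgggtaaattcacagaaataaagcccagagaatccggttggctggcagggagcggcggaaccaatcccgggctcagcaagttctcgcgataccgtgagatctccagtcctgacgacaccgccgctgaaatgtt
TSPYL4: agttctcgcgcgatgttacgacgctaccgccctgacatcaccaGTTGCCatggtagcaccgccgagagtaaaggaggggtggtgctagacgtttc
The stretch for TSPYL2, chrX:53082117-53082366 on the plus strand, holds the 250 bases before its start. It has no such arm, and capitals mark CCAAT or its reverse complement ATTGG, the Y-box bound by the factor NF-Y.
TSPYL2: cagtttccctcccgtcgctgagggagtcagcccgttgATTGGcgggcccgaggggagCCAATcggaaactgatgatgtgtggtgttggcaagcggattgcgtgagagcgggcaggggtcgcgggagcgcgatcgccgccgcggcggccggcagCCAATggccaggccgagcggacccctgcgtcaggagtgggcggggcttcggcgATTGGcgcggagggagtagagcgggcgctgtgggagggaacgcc

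At TSPYL1 (chr6:116274858-116279930, minus strand), the DMSO list held an entry of 330 bp at chr6:116279915-116280244. Its summit, at 116280011, lay 81 bp before the TSPYL1 start. The authors' fold enrichment of ChIP over background was 8.62, with a −log10 p of 36.3 and a −log10 q of 31.0. Here q is the authors' p-value after adjustment for multiple testing. By fold enrichment it ranked 27 of 505 entries, and by −log10 q it ranked 180. The entry thus stood nearer the top of its list by enrichment than by significance. Its fold was 3.02 times the list median of 2.86.

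The Nutlin-3a list held an entry of 832 bp at the same place, chr6:116279587-116280418, which contained the whole DMSO entry. Its fold enrichment was 4.16, its −log10 p 77.4 and its −log10 q 71.98. It ranked 225 of 622 by fold and 140 by −log10 q. The deposited summit lay 38 bases from the left edge of the entry, 305 bp inside TSPYL1, whereas the middle of the entry lay 72 bp before the start and 9 bp from the DMSO summit.

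At TSPYL2 (chrX:53082367-53088540, plus strand), the DMSO entry was 183 bp wide, chrX:53082123-53082305, with its summit 221 bp before the start. Its fold enrichment was 5.81, its −log10 p 18.7 and its −log10 q 13.8. It ranked 69 of 505 by fold and 274 by −log10 q. Like the TSPYL1 entry, it stood higher in its list by fold than by significance.

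The Nutlin-3a entry at TSPYL2 was 245 bp wide, chrX:53082099-53082343, and again contained the whole DMSO entry. Its summit lay 74 bp before the start. The fold enrichment was 9.28, the −log10 p 51.6 and the −log10 q 46.4, which placed it 51 of 622 by fold and 208 by −log10 q. Every base of both TSPYL2 entries lay before the start site, from 268 to 24 bp before it at the widest, while both TSPYL1 entries ran across the start into the gene, by 15 bp (DMSO) and 343 bp (Nutlin-3a).

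**Figure D1:**
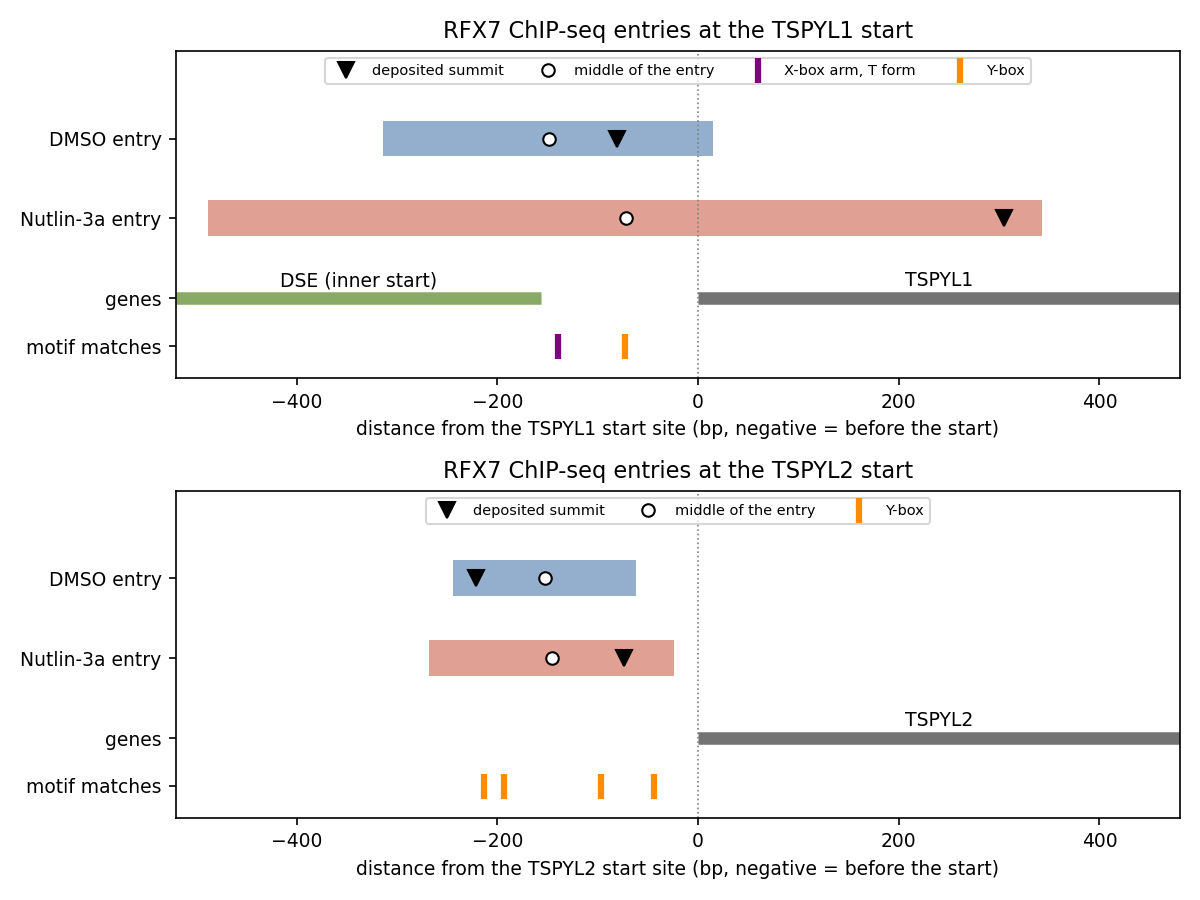
Position of each entry (bars), its deposited summit (triangles) and its middle (circles) around the start sites of TSPYL1 and TSPYL2, in bp with negative values before the start, with genes and motif matches below. All 4 entries cover DNA just before a start, and of these the Nutlin-3a entry at TSPYL1 has its summit (305 bp) inside the gene.

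These places in the rankings hold within each list only. The lists differ in length and the depth behind each is unknown. A fold of 4.16 after Nutlin-3a beside 8.62 after DMSO at TSPYL1, or 9.28 beside 5.81 at TSPYL2, thus cannot tell whether binding changed. At both genes the −log10 q was the higher of the pair in the Nutlin-3a list, 71.98 against 31.0 at TSPYL1 and 46.4 against 13.8 at TSPYL2, in a list whose median was 22.6 against 17.2. The TSPYL1 entry was 2.52 times and the TSPYL2 entry 1.34 times as wide in the Nutlin-3a list. Among the 327 entries that overlapped exactly 1 entry of the other list and were its only overlap, the median of this ratio was 1.16 and the Nutlin-3a entry was the wider one in 266.

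For an entry from a single call of MACS2, the peak caller named in the submitters' processing notes, fold enrichment and p together fix the pileup, which is the number of extended reads over the summit. At TSPYL1 in the DMSO list this gave 56 reads over a background of 5.61 (exact 95% Poisson interval of the pileup 42.3 to 72.7). At TSPYL2 in the Nutlin-3a list it gave 79 reads over 7.62 (62.5 to 98.5). The intervals cover counting error only, and the summit is the highest point of its entry. Backgrounds at both were below the list medians of 36.4 and 16.6 among entries that could be solved. The Nutlin-3a entry at TSPYL1 and the DMSO entry at TSPYL2 gave no whole number, as did 19.6% of all DMSO entries and 34.9% of all those of the Nutlin-3a list. Their summits lay at 4.57% and 12.6% of the width, where the medians of such entries were 27.2% and 26.7% in their lists. The fold, −log10 p, −log10 q, ranks and summit of these 2 entries are therefore less certain than those of the other 2. The −log10 q pairs set side by side above include these less certain values.

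Apart from these, no entry lay within 4 Mb of either gene. The nearest other summit to the TSPYL1 peak was 27.2 Mb away after DMSO and 4.80 Mb away after Nutlin-3a. For TSPYL2 the distances were 5.45 and 4.12 Mb. Both genes thus had a single isolated peak in each list. A summit within 50 kb of an end was found for 2.03% of all protein-coding genes after DMSO, 3.04% after Nutlin-3a and 1.7% in both lists. Within 1 kb, where all 4 summits lay, the shares were 0.454%, 0.648% and 0.374%. Of 22199 promoter windows, each reaching from 250 bases before to 50 after a start, DMSO entries overlapped 0.27% and Nutlin-3a entries 0.518%, with 0.243% overlapped in both, and the windows of TSPYL1 and TSPYL2 were among the latter. Overlap with the other list, which both genes' entries had, was found for 74.3% of the entries after DMSO and 56.9% of those after Nutlin-3a.

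The TSPYL1 peak has more than 1 possible gene. A start of DSE lies at 116280086, 156 bp from the TSPYL1 start and on the other strand, so that both genes are read outwards from the same short interval. The DMSO summit sat between the starts, 81 bp from that of TSPYL1 and 75 bp from that of DSE, and both entries covered both starts. The gene DSE runs from 116254171 to 116444861 and TSPYL1 lies within its span. Of 1362 pairs of protein-coding starts that point away from each other and are at most 1000 bp apart, a DMSO entry overlapped 0.587% and a Nutlin-3a entry 0.954%. Starts of the same gene counted separately here.

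TSPYL4, the nearest TSPY-like paralogue, sits at the outer end of DSE. Its start is 96 bp from the first base of DSE, and the starts again point away from each other, and the distance from its end to the TSPYL1 summit was 25.9 kb (DMSO) and 25.6 kb (Nutlin-3a). The 50-kb rule thus counted the TSPYL1 peak for TSPYL4 too, although neither list had an entry on the interval between TSPYL4 and DSE. NT5DC1, a gene named for its 5′-nucleotidase domain, had its terminus 30.5 kb from the DMSO summit.

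At TSPYL2 the neighbours run in the same direction. The terminus of GPR173, an orphan G protein-coupled receptor gene, was 1.53 kb from the DMSO summit and 1.68 kb from the Nutlin-3a summit. The start of KANTR, which the gene table lists as protein-coding, was 11996 and 11849 bp away. No other start in the promoter table was as near to this peak as that of TSPYL2, at 221 and 74 bp.

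Within the family, only TSPYL1 and TSPYL2 had a summit within 5 kb, in both lists, out of 5 TSPY-like genes. The share over all protein-coding genes at this distance was 0.763% (DMSO), 1.08% (Nutlin-3a) and 0.628% (both). The nearest summit to TSPYL5 was 1667 kb away (DMSO) and 1666 kb away (Nutlin-3a). TSPYL6, a paralogue on chromosome 2, had its nearest summit 200.02 kb away in the Nutlin-3a list and 32464 kb away in the DMSO list. Of 7 genes of the SET and NAP1-like group, the histone chaperones that share the NAP domain, 0 had a summit within 5 kb in either list. SET, whose product also inhibits the phosphatase PP2A, had a DMSO summit 27.6 kb away (fold enrichment 4.39, −log10 q 7.55), and its nearest Nutlin-3a summit was 384.6 kb away.

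Of 21 other histone chaperone genes, 1 had a DMSO summit and 2 had a Nutlin-3a summit within 5 kb, and 1 had both, where the shares over all protein-coding genes were 0.763%, 1.08% and 0.628%. ATRX encodes a chromatin remodeller that works with DAXX in placing the histone variant H3.3. It had an entry in both lists, the summits 145 bp (DMSO) and 89 bp (Nutlin-3a) from a gene end. Fold enrichment and −log10 q were 3.83 and 4.20 after DMSO (rank 167 by fold) and 8.44 and 41.7 after Nutlin-3a (rank 60). CABIN1, a partner of the HIRA chaperone, had an entry in the Nutlin-3a list alone, 40 bp from a gene end, enriched 4.36-fold at a −log10 q of 15.7. HIRA, DAXX, the ASF1 and CAF-1 genes and the FACT genes SUPT16H and SSRP1 had none within 100 kb, a distance at which 3.21% (DMSO), 4.88% (Nutlin-3a) and 2.71% (both) of all protein-coding genes had a summit.

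**Figure D2:**
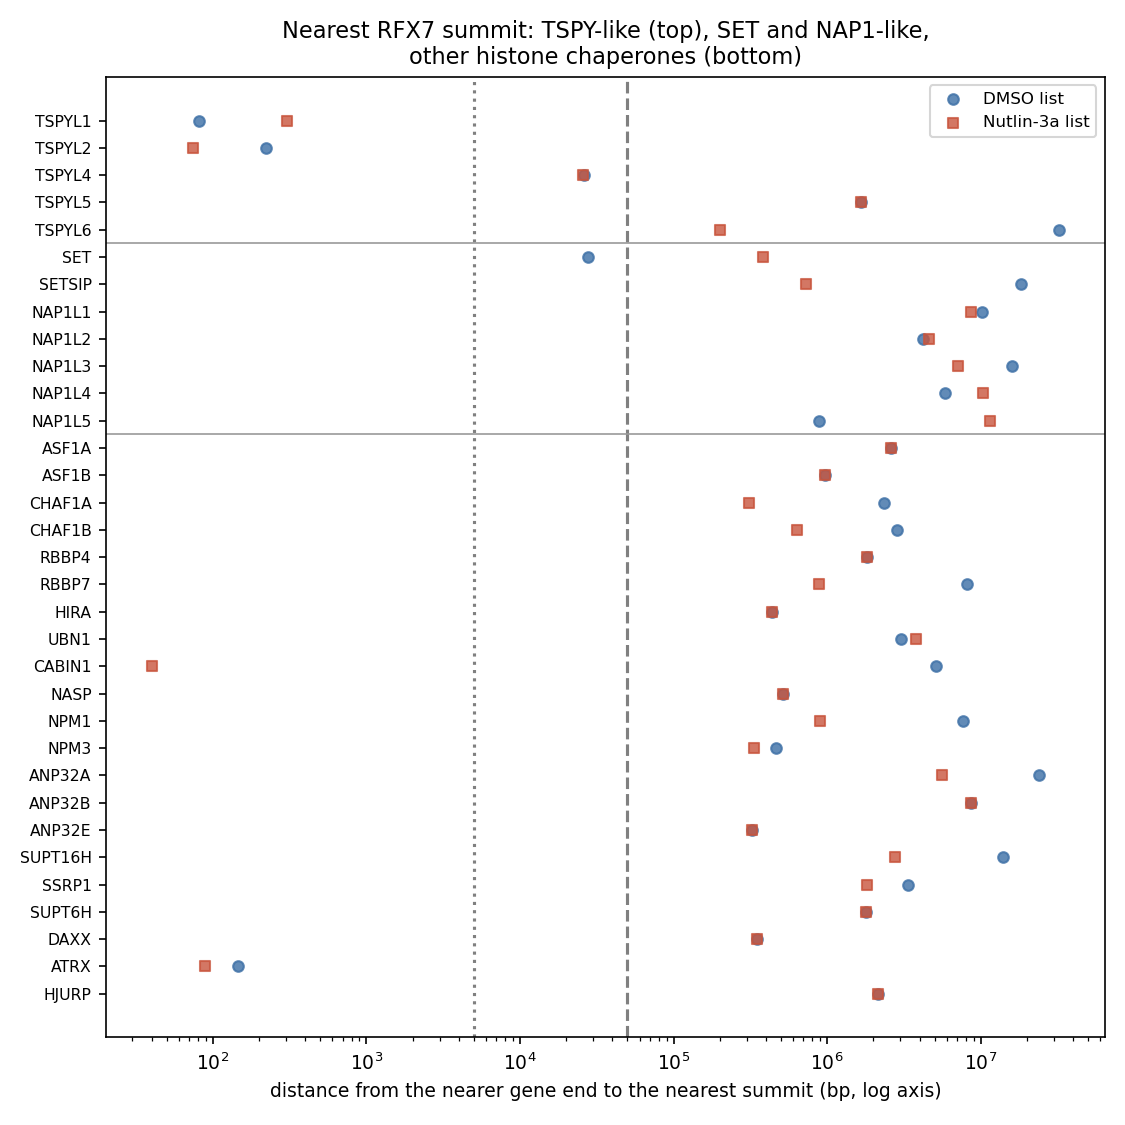
Distance in bp (log axis) from the nearer gene end to the nearest summit of the DMSO list (circles) and the Nutlin-3a list (squares) for TSPY-like genes, SET and NAP1-like genes and other histone chaperones; the dotted line is 5 kb and the dashed line 50 kb. TSPYL1, TSPYL2 and ATRX lie left of both lines in both lists, and TSPYL4 lies between the lines at 25.9 and 25.6 kb.

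Among 18 genes listed as RFX7 targets, 11 had a DMSO summit and 15 a Nutlin-3a summit within 5 kb, against 0.763% and 1.08% of all protein-coding genes, and the TSPY-like genes took different places among them in each list. The list was chosen with results of these data known. In the DMSO list TSPYL1 was the third of 11 by fold enrichment, after IP6K2 (17.8) and PNRC1 (17.4) and just ahead of RFX5 (8.51) and PDCD4 (8.44), and TSPYL2 took place 7, between TOB1 (6.09) and PIK3IP1 (5.78). In the Nutlin-3a list TSPYL2 was the third of 15, after IP6K2 (24.1) and RFX5 (20.1), and TSPYL1 took place 13, between MXD4 (4.27) and CCND1 (3.98). Of these entries, 2 of 11 in the DMSO list and 13 of 15 in the Nutlin-3a list gave no whole-number pileup, so most Nutlin-3a places rest on the less certain folds. By −log10 q the places differed less between the lists, though these values are less certain for the same entries. TSPYL1 took place 5 of 11 and 7 of 15, and TSPYL2 took place 9 of 11 and 9 of 15.

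**Figure D3:**
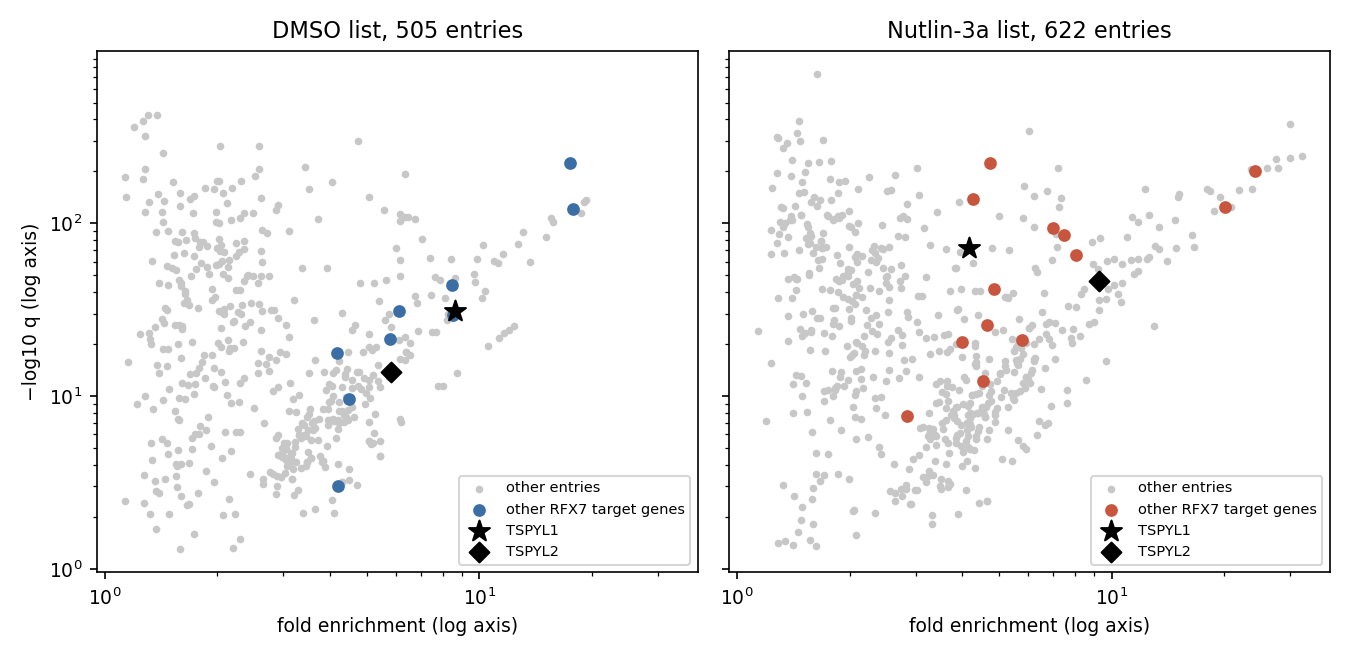
Fold enrichment against −log10 q (both log axes) for all entries of the DMSO list (left) and the Nutlin-3a list (right), with the other RFX7 target genes coloured. TSPYL2 (diamond) lies at 5.81 and 13.8 in the left panel and 9.28 and 46.4 in the right, and TSPYL1 (star) lies at 8.62 and 31.0 in the left panel and at 4.16 and 71.98 in the right.

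Likeness to other genes was measured as the distance between rank percentiles by fold enrichment in both lists, over genes with an entry within 5 kb in both. For TSPYL2, the nearest of 124 genes was TOB1, an antiproliferative gene of the BTG family, at 2.24 percentile points (ranks 65 and 64). TSC22D1, a transcriptional regulator gene, followed at 2.64 (ranks 72 and 35), and KLHL7, the gene of a ubiquitin ligase adaptor, at 3.06 (ranks 81 and 39). For TSPYL1 the nearest of 125 genes was farther away. PNRC1, a nuclear receptor coactivator gene, stood at 9.28 points (ranks 5 and 174), and RBM15, an RNA-binding protein gene, and LOC124904276, which share a peak, stood at 10.1 (ranks 52 and 170). The TSPYL1 distances rest on its less certain Nutlin-3a fold. Neither PNRC1 entry gave a whole-number pileup, nor did the Nutlin-3a entry that RBM15 and LOC124904276 share. The TSPYL2 distances likewise rest on its less certain DMSO fold. No whole number came from the Nutlin-3a entry of TOB1, the DMSO entry of TSC22D1 or either KLHL7 entry. The −log10 q values of TOB1 were 31.2 (DMSO) and 65.4 (Nutlin-3a), against 13.8 and 46.4 for TSPYL2. By −log10 q TSPYL1 and PNRC1 were not close, at 31.0 and 71.98 for TSPYL1 and 223.4 and 223.95 for PNRC1.

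The TSPYL1 interval held 1 X-box arm, GTTGCT, whose first base lay 140 bp before the TSPYL1 start, inside both entries. It was 56 bp from the DMSO summit and 11 bp from the middle of the DMSO entry. For the Nutlin-3a entry it was 442 bp from the deposited summit and 65 bp from the middle. A single CCAAT at 73 bp before the start was nearer to the summits than the arm, at 10 bp (DMSO) and 376 bp (Nutlin-3a). By the entry middles it was 78 bp away (DMSO), farther than the arm, and 1 bp away (Nutlin-3a). The TSPYL4 interval held GTTGCC at 52 bp before its start. In both genes the arm was followed by the same 4 bases, ATGG.

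The TSPYL2 window held neither GTTGCC nor GTTGCT. With the looser letters GTTNCC it had 3 matches, at 248, 187 and 9 bp before the start, and the Nutlin-3a entry contained the first 2 of these and the DMSO entry the one at 187 bp. It held 4 CCAAT matches on either strand, at 213, 193, 97 and 44 bp before the start, all inside the Nutlin-3a entry and the first 3 inside the DMSO entry. The DMSO summit was 10 bp from the match at 213 bp, and the Nutlin-3a summit 21 bp from the match at 97 bp, the nearest in each case. The match at 193 bp was the nearest to the entry middles, 38 bp (DMSO) and 45 bp (Nutlin-3a) away. Both windows also held GGGCGG (the GC box) and TGACG (an arm of the cyclic AMP response element) 1 time each. At TSPYL2 these lay 16 and 6 bp from the Nutlin-3a summit, nearer than any CCAAT, and 163 and 153 bp from the DMSO summit. At TSPYL1 they lay 286 and 327 bp from the Nutlin-3a summit and 99 and 59 bp from the DMSO summit.

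Such matches are frequent. GTTGCC was found in 12.6% of the 22199 promoter windows, GTTGCT in 12.4%, either in 23.1%, GTTNCC (which includes GTTGCC) in 46.1%, CCAAT in 34.7%, GGGCGG in 56.3% and TGACG in 27.9%. As many as 4 CCAAT were found in 1.13%. Among the 121 windows overlapped by an entry of either list, GTTGCC or GTTGCT was found in 59.5%, CCAAT in 72.7% and 4 or more CCAAT in 13.2%. TSPYL1 thus belonged to the overlapped windows with an exact arm and TSPYL2 to the rest. The overlapped windows also had a higher share of G and C bases, with a median of 66% against 62.3% in all windows, and TSPYL1 had 54% and TSPYL2 68.7%. The part of base composition in the shares was not tested.

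Neither gene had an X-box with both arms in its promoter window. Parts of both TSPYL1 entries and of the Nutlin-3a entry at TSPYL2 lay outside the windows and were not read. The deposited Nutlin-3a summit at TSPYL1 was in such a part. The form GTTNCC facing GGNAAC with 0 to 3 bases between occurred in 0.802% of all windows and in 1 of the 121 overlapped ones. GTTGCT does not match these letters, so the arm at TSPYL1 could not count as part of this form. Against GTTGCC and GGCAAC with any 2 bases between, the best stretch in TSPYL1 and in TSPYL2 each differed at 4 of 12 fixed bases, as few as or fewer than which 67.1% of all windows and 72.7% of overlapped windows had. The best stretch in TSPYL4 differed at 2, which 3.35% of all windows and 9.92% of overlapped windows reached. By these letters the TSPYL4 promoter, which no entry covered, was closer to a full X-box than the promoters of both genes with a peak. The letters count the last base of GTTGCT as a difference and allow only a gap of 2 bases. They were chosen after seeing the data, so the contrast holds for this count only.

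**Figure D4:**
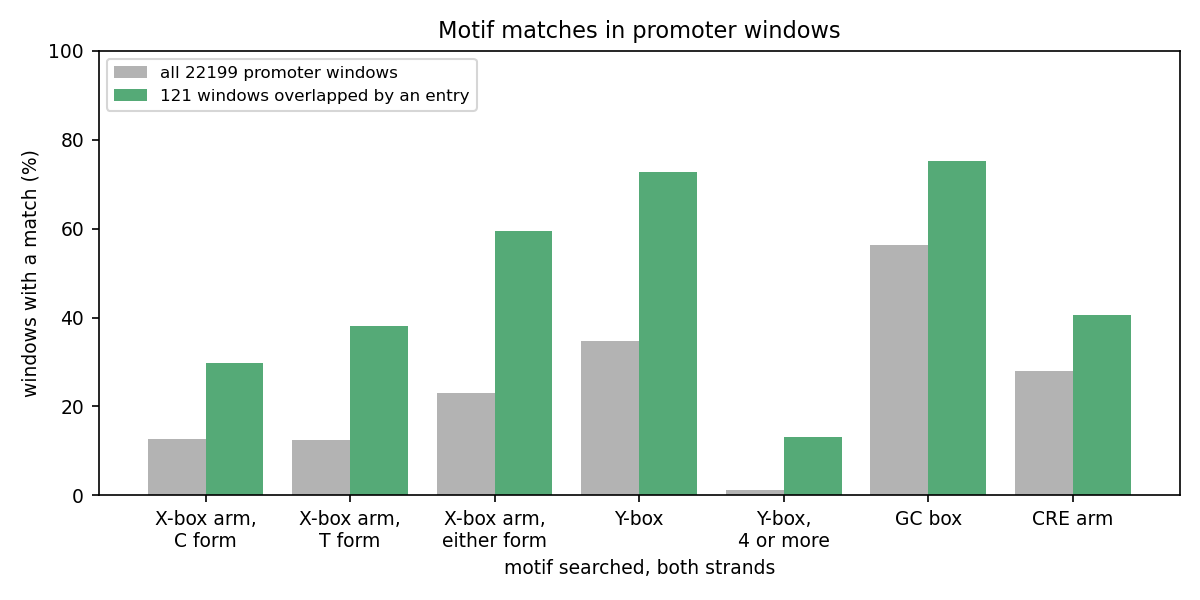
Percentage of promoter windows with a match on either strand, for all 22199 windows (grey) and the 121 overlapped by an entry of either list (green); the X-box arm is GTTGCC in its C form and GTTGCT in its T form, and the other motifs are spelled out in the text. The overlapped windows have the higher bar for each motif, such as 59.5% against 23.1% for either arm and 72.7% against 34.7% for the Y-box.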

How the data were processed

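Per the submitters' processing notes, reads went through bcl2fastq 2.20.0.422, Trimmomatic 0.39, cutadapt 2.10, FastQC 0.11.9, SAMtools 1.10, Picard, MACS2 2.2.7.1 and bedtools 2.29.2, with build hg38. The aligner, settings, filters and pooling of replicates are not given in the sources used here. The authors deposited 1 narrowPeak list per treatment, with a fold enrichment, a −log10 p, a −log10 q and a summit offset per entry. These are the authors' values. They were used to describe, filter and rank entries within a list and to solve pileups, and the likeness between genes combined the ranks from both lists. The deposited score equalled −log10 q times 10, without decimals, in 503 of 505 DMSO and 621 of 622 Nutlin-3a entries. Depth per sample is unknown.

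Files were read with Python 3.11.15, pandas 2.3.3 and scipy 1.17.1. Distances run from the summit to the nearer gene end of RefSeq protein-coding genes (GRCh38.p14). Start sites, strands and sequences came from a RefSeq promoter table with 22199 windows for 15843 of these genes, several for some, among them 4 of the 5 TSPY-like genes. Entries were shared when they overlapped by 1 bp. Pileups were solved from fold and p under MACS2's definitions and accepted within 0.02 of a whole number. Named genes were both members, protein-coding genes with an end within 50 kb of a member summit, listed family and chaperone genes with a summit within 50 kb, the 3 genes nearest in rank to each member, and the RFX7 target list for rank. Genes further away were named to show the spread of the lists. Members and lists were chosen with earlier results of these data known.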

Additional observations from a re-analysis of the deposited data

How the results depend on the processing

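No paired analysis was possible because the peak lists, 1 per treatment, give nothing for single replicates, and for the same reason no replicate was left out. Both lists kept 2 entries at TSPYL1 and TSPYL2 at distances of 1, 5 and 100 kb, at −log10 q at or above 5 and 10, and by peak midpoint. Both genes' entries overlapped between the lists by 1 bp, but with overlap of 50% of both entries 1 gene remained (TSPYL2) and with summits within 100 bp 0 remained. With midpoints within 100 bp, a setting chosen after seeing the data as was the count of mismatches to the X-box, both did. Ranks by −log10 p and −log10 q were 181 and 180 for TSPYL1 and 275 and 274 for TSPYL2 in the DMSO list, and 143 and 140 for TSPYL1 and 210 and 208 for TSPYL2 in the Nutlin-3a list. The cause was not tested. Protein-coding genes with a summit numbered 407 (DMSO) and 609 (Nutlin-3a) at 50 kb, 153 and 216 at 5 kb, 91 and 130 at 1 kb, 643 and 978 at 100 kb, and 256 for DMSO at 50 kb with −log10 q at or above 10. With GTTNCC in place of GTTGCC and GTTGCT, matches went from 1 to 0 in the TSPYL1 window and from 0 to 3 in the TSPYL2 window. Of 41 alternative values, 22 stayed within 1.5 times the main value.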
